A study of Caenorhabditis elegans with 2 samples.

Results

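The snoRNA genes of the Caenorhabditis elegans nuclear genome were taken as all genes of biotype snoRNA outside the mitochondrial genome in the Ensembl annotation of WBcel235, the assembly also called ce11. There are 346 of them among 46890 annotated nuclear genes, with lengths of 54 to 344 bases and a median of 130. They were described by the MED-1 ChIP-seq (chromatin immunoprecipitation and sequencing) peaks that lay at them. The series holds 1 group of 2 biological replicates of whole hermaphrodite embryos at the middle stage, all of strain OP391. The strain carries the unc-119(ed3) allele on III and the transgene wgIs391, which holds med-1 fused at its C terminus to the tags TY1, EGFP and FLAG, and unc-119(+). MED-1 was thus made from a tagged transgene in a single strain, and it was precipitated with an antibody to GFP. Embryos were not separated by cell type, so a peak cannot be assigned to a cell. A control experiment named in the labels and any untagged or GFP-only sample were not analysed here, and the read depth is unknown because the lists hold no read counts.

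Small nucleolar RNAs (snoRNAs) guide the chemical modification of ribosomal and other RNAs. Those of the C/D class carry a C box and a D box and direct 2′-O-methylation, and those of the H/ACA class end in an ACA box and direct pseudouridylation. In vertebrates most are cut out of the introns of host genes, whereas other species also have snoRNA genes with promoters of their own. RNA polymerase III reads tRNA genes from an internal promoter made of an A box and a B box, which the factor TFIIIC binds, and in the yeast Saccharomyces cerevisiae the snoRNA gene SNR52 has such boxes in its transcribed leader. MED-1 is a GATA-type factor of the embryonic mesendoderm that is known to bind a distinct site, AAGTATAC or GAGTATAC.

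The sequence just upstream is one of the features in which snoRNA genes with and without peaks differed. Each run below gives 100 bases upstream and the first 10 bases of the gene, 5′ to 3′ on the strand of the gene, from the RefSeq genome of WBcel235. Capitals mark a match to the A box core TGGNNNA (left) and a match to the B box core GTTCNANNC (right) that starts 25 to 75 bases after it. Where several A box matches fitted, the one furthest upstream was taken and the others were left in small letters. Where both matches were present the gene is said to have a box pair. A match is a string of letters and is not by itself a binding site. The first set holds 7 strong members with a peak and a box pair.
T03F7.8, chrV:11314158-11314267, plus strand: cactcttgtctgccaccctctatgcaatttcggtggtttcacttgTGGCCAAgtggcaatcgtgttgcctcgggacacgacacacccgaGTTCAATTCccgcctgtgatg
W03C9.9, chrII:11960798-11960907, plus strand: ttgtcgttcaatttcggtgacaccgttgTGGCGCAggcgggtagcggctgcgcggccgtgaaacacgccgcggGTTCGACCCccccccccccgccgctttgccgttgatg
Y43F8C.22, chrV:19643178-19643287, minus strand: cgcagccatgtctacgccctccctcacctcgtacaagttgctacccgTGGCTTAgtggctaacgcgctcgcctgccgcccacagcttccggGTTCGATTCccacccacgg
C51F7.3, chrV:12303608-12303717, plus strand: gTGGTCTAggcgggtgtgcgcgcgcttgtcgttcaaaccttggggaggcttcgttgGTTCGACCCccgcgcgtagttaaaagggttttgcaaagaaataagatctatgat
C04G6.12, chrII:5105222-5105331, minus strand: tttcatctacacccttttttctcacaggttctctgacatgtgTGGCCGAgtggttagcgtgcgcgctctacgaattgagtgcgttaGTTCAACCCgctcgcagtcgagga
F32E10.10, chrIV:7574022-7574131, plus strand: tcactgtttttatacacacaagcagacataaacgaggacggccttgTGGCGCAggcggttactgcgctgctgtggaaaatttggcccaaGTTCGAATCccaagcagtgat
F55A11.10, chrV:11782892-11783001, plus strand: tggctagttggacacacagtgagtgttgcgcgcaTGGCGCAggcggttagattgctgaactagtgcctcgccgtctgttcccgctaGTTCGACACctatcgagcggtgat
The second set holds 3 of the 4 members that have a box pair but no peak of the optimal set.
R166.7, chrII:10545320-10545429, minus strand: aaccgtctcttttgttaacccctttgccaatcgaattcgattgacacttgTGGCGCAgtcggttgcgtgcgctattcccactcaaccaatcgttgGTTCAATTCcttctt
H04D03.5, chrIII:10432243-10432352, plus strand: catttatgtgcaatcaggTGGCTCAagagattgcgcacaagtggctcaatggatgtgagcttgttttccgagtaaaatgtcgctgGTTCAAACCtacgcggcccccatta
Y59E1B.14, chrX:1891409-1891518, plus strand: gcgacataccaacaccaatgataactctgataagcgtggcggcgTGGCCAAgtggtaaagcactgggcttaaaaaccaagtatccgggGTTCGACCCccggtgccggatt
The third set has no box pair in this window. ZK994.7 and T06C12.16 are strong members with a peak, whereas R151.11, in an intron of rpl-6, and K07C5.11, in an intron of nol-56, have no peak of the optimal set. T06C12.16 has a looser pair, with 1 fixed letter of the B box core changed, and ZK994.7 has not even that.
ZK994.7, chrV:8500479-8500588, plus strand: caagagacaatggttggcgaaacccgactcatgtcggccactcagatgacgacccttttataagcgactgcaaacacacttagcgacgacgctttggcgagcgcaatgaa
T06C12.16, chrV:15873917-15874026, minus strand: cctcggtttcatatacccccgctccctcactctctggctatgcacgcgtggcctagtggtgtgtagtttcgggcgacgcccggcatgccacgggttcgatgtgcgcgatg
R151.11, chrIII:7208513-7208622, plus strand: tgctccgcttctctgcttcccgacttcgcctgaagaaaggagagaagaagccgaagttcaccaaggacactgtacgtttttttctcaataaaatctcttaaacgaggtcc
K07C5.11, chrV:10352827-10352936, minus strand: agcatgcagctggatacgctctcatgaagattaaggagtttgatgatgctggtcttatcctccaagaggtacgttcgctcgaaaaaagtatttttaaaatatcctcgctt
The genes behind 3 of the strongest peaks are shown whole, because they are short and have a C box core (TGATG) near the start and a D box (CTGA) near the end, both in capitals.
T03F7.8, chrV:11314258-11314332, plus strand: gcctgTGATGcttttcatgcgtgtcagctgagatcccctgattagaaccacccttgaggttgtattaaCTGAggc
W03C9.9, chrII:11960898-11960959, plus strand: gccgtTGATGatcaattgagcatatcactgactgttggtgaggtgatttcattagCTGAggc
C51F7.3, chrV:12303708-12303783, plus strand: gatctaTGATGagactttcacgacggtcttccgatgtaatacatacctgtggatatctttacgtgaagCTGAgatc

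A peak summit of the optimal set lay within 200 bp of 47 of the 346 snoRNA genes (13.6%, exact binomial 95% interval 10.2 to 17.7). Over all nuclear genes this share was 1.51%, a figure that takes in 15363 piRNA genes with a summit at only 1. A share above that figure was not particular to snoRNA genes. The tRNA class had a higher one, with a summit at 151 of its 612 members (24.7%). Lower than the snoRNA share were the snRNA class at 4.65%, the miRNA class at 2.30% and the rRNA class at 0 of 20. The optimal set is the list that the authors kept after the irreproducible discovery rate (IDR) step, which compares the ranks of peaks between replicates, and it is the 460 strongest of the 30000 pooled peaks. The 47 genes shared 46 peaks, since C51F7.3 and C51F7.4 lie side by side under 1 summit. None of the 46 peaks had its summit within 200 bp of a tRNA, snRNA or rRNA gene. All intervals given here cover counting only, and neighbouring genes under the same peak are not independent.

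In the longer lists, which hold background regions as well as peaks, the snoRNA genes stood closer to the rest of the genome. Summits of the pooled list lay at 131 snoRNA genes (37.9%), against 33.7% of all nuclear genes. Replicate 2, also a list of 30000 regions, gave 138 (39.9%), against 34.0%. Both shares are near the background, so a pooled or replicate 2 region at a snoRNA gene says little by itself. The shorter replicate 1 list of 2401 regions had a summit at 58 snoRNA genes (16.8%), against 5.07%. Of the 131 with a pooled summit, 47 were in the optimal set, 8 more ranked within the first 1000 pooled peaks and 76 ranked below that.

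The signal given with each peak is the authors' value for its height against a control, whose scaling is not given in the sources used here. It was used to rank peaks within a list, and values of different lists are set side by side only as deposited. The 47 members had optimal signals of 41.1 to 246, with a median of 98.2. As peaks, 20 of the 46 were among the 100 strongest of the optimal set, against 84 of all 440 nuclear peaks. The count was 18 of the 141 nuclear peaks at tRNA genes and 46 of the 248 away from small RNA genes. The strongest was T03F7.8, a 75-base gene on V in an intron of cutl-18, which encodes a cuticulin-like protein, on the opposite strand to it. Its peak was number 19 of the optimal set by rank, and its signal was 246, against 119 for replicate 1 alone and 120.5 for replicate 2 alone. W03C9.9, a 62-base intergenic gene on II, followed with 239, and with 113 in replicate 1 and 122 in replicate 2.

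**Figure D1:**
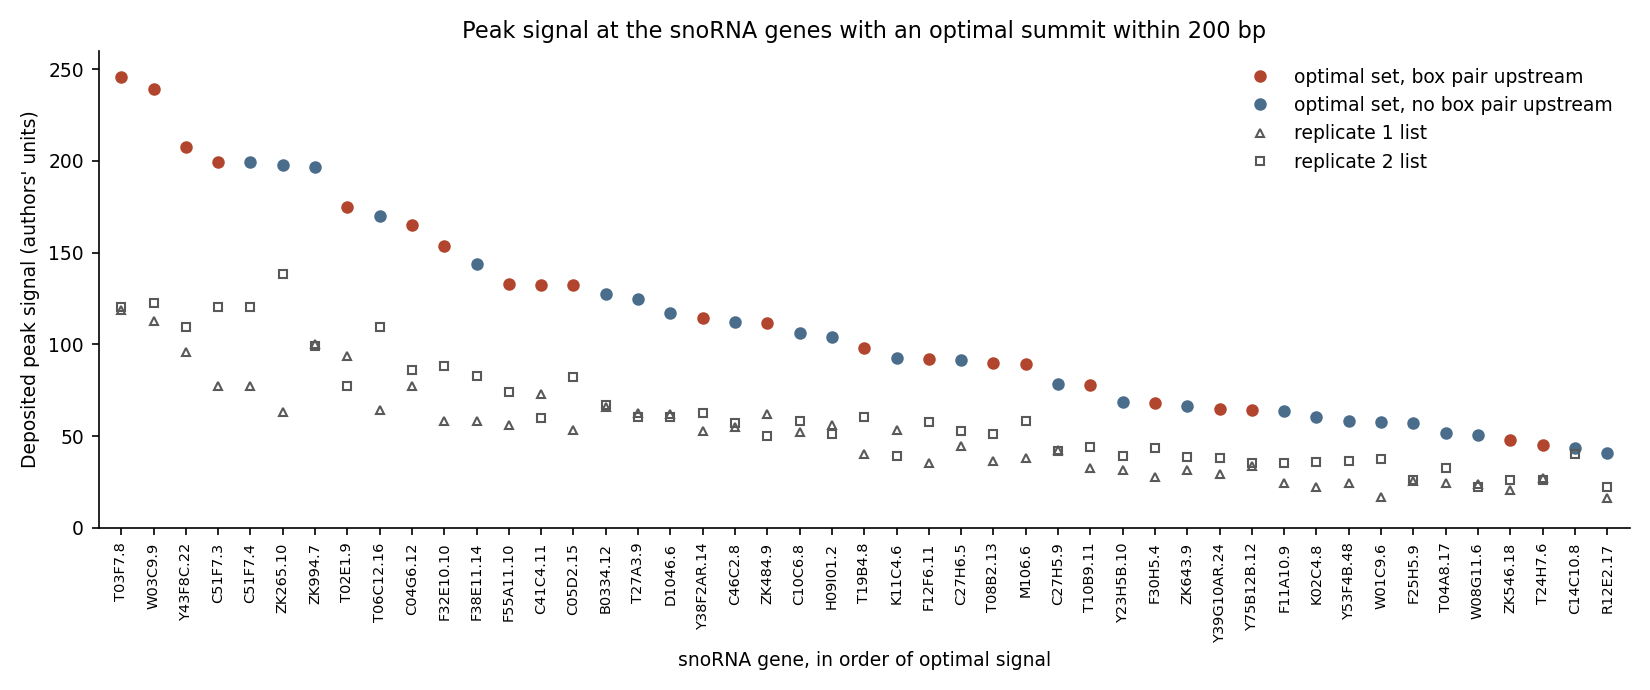
Deposited peak signal (vertical axis, authors' units) at each of the 47 snoRNA genes with an optimal summit within 200 bp, in order of optimal signal from left to right. Filled circles are the optimal set, coloured by whether a box pair lies upstream, open triangles are the replicate 1 list and open squares the replicate 2 list. Optimal signals run from 246 at T03F7.8 to 41.1 at R12E2.17, and C14C10.8 has no replicate 1 summit.

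Intronic genes on the strand of their host were also among the strongest. Y43F8C.22, a 138-base gene in an intron of Y43F8C.7 on V, had a signal of 208, with 96.0 in replicate 1 and 109 in replicate 2. C51F7.3 and C51F7.4, both within frm-7, which encodes a protein with a FERM domain, shared a peak of 199.6, with 77.2 and 120.1 in the replicates. ZK994.7, in an intron of the peroxidasin gene pxn-1, had 197, with 99.999 in replicate 1 and 99.1 in replicate 2. The deposited values of the replicate lists were close at ZK994.7 and further apart at the frm-7 peak, where that of replicate 2 was the higher.

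Intergenic genes and genes antisense to a host made up most of the next group. Intergenic ZK265.10 had 197, with 63.1 in replicate 1 and 139 in replicate 2, the widest gap in signal between replicates of the 45 peaks found in both lists. T02E1.9, antisense to the end of the sperm gene spe-12, had 175, with 93.7 in replicate 1 and 77.3 in replicate 2. Intergenic T06C12.16 had 170.2, with 64.5 and 109.5 in the replicates. C04G6.12, antisense in an intron of the MAP kinase gene mpk-2, had 165, with 77.5 in replicate 1 and 85.9 in replicate 2. The deposited value was thus higher in the replicate 2 list at 3 of these 4 genes. Over all members with an optimal summit the median was 57.2 in the replicate 2 list and 52.4 in the replicate 1 list. With the scaling between lists unknown, such gaps are not read as traits of single genes.

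The other members of the strongest 20 ranged from 153 at intergenic F32E10.10 to 112 at intergenic C46C2.8. F38E11.14, in an intron of cng-3, which encodes a cyclic nucleotide-gated channel subunit, had 144. F55A11.10 in F55A11.6 had 133, intergenic C41C4.11 had 132 and C05D2.15 in madf-11 had 132. B0334.12, antisense in an intron of the potassium channel gene twk-5, had 128, with 65.7 in replicate 1 and 67.2 in replicate 2. T27A3.9, antisense to the end of T27A3.8, had 125. D1046.6 had 117 and lies in an intron of cfim-2, which encodes a subunit of a pre-mRNA cleavage factor. Y38F2AR.14, in Y38F2AR.12, had 114.

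The replicate lists ranked these peaks alike. Every one of the 47 members had a summit in the replicate 2 list and 46 had one in the replicate 1 list. C14C10.8, in an exon of ril-2, was the exception, whose signal was 43.7 in the optimal set and 40.5 in the replicate 2 list. Over the 45 peaks in all 3 lists, the signals of the replicates had a Pearson correlation of 0.837 and a Spearman correlation of 0.899. These values are across peaks chosen for their pooled strength, and peaks within 1 library share its depth, so they are a description. The weakest member was R12E2.17, in an intron of the proteasome lid gene rpn-8, with 41.1, and with 16.1 in replicate 1 and 22.2 in replicate 2.

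**Figure D2:**
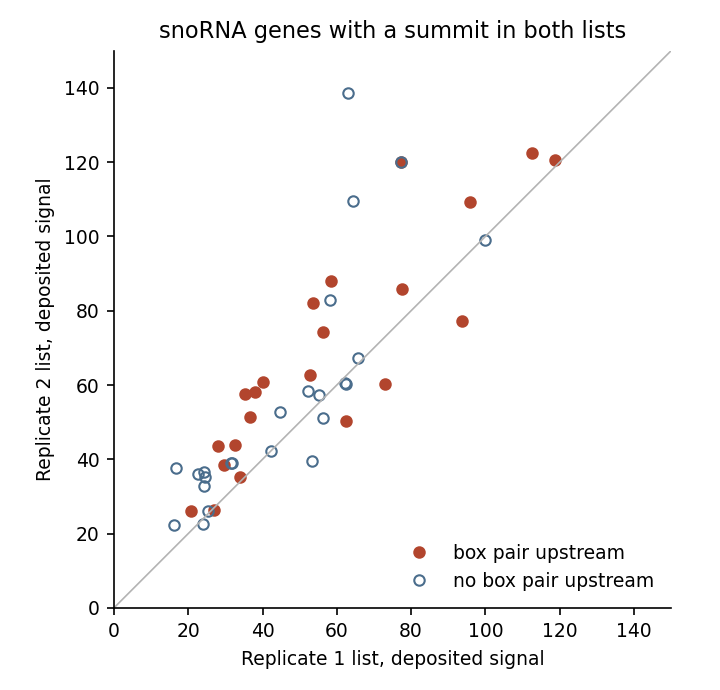
Deposited signal in the replicate 1 list (horizontal axis) and the replicate 2 list (vertical axis) at the snoRNA genes with an optimal summit and a summit in both lists. Filled circles have a box pair upstream, open circles have none, and the line marks equal signals. Replicate 1 signals run from 16.1 to 119 and replicate 2 signals from 22.2 to 139.

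Members with a box pair mostly had a peak, and members without one mostly had none. Of the 26 members with a box pair upstream, 22 had an optimal summit (84.6%, exact 95% interval 65.1 to 95.6). Of the 320 without, 25 had one (7.81%, 5.12 to 11.3). The pair was defined after the upstream sequences of members with peaks had been seen, so these shares are a description and were given no test. It was rare elsewhere: the same 110-base window held a pair at 7.51% of snoRNA genes, 1.53% of miRNA genes, 0.0701% of protein-coding genes and 0.181% of all nuclear genes. No snRNA or tRNA gene had a pair in that window. The boxes of a tRNA gene lie within the gene, which this upstream window does not cover.

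A looser pattern took in more of the peaks. With at most 1 of the 6 fixed letters of the B box core changed, 49 members had a pair, and 34 of them had an optimal summit (69.4%, 54.6 to 81.7). Of the 297 members without even the looser pair, 13 had one (4.38%, 2.35 to 7.37). The looser pair occurred in 2.72% of the windows of all nuclear genes. The strict B box core alone, on the strand of the gene, gave 26 of 38 members with an optimal summit (68.4%, 51.3 to 82.5), against 21 of 308 without it (6.82%, 4.27 to 10.2). On the opposite strand the core lay in only 3 windows, of which F25H5.9 in the pyruvate kinase gene pyk-1 had a peak of 57.4 and was also the only member with a pair on that strand.

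**Figure D3:**
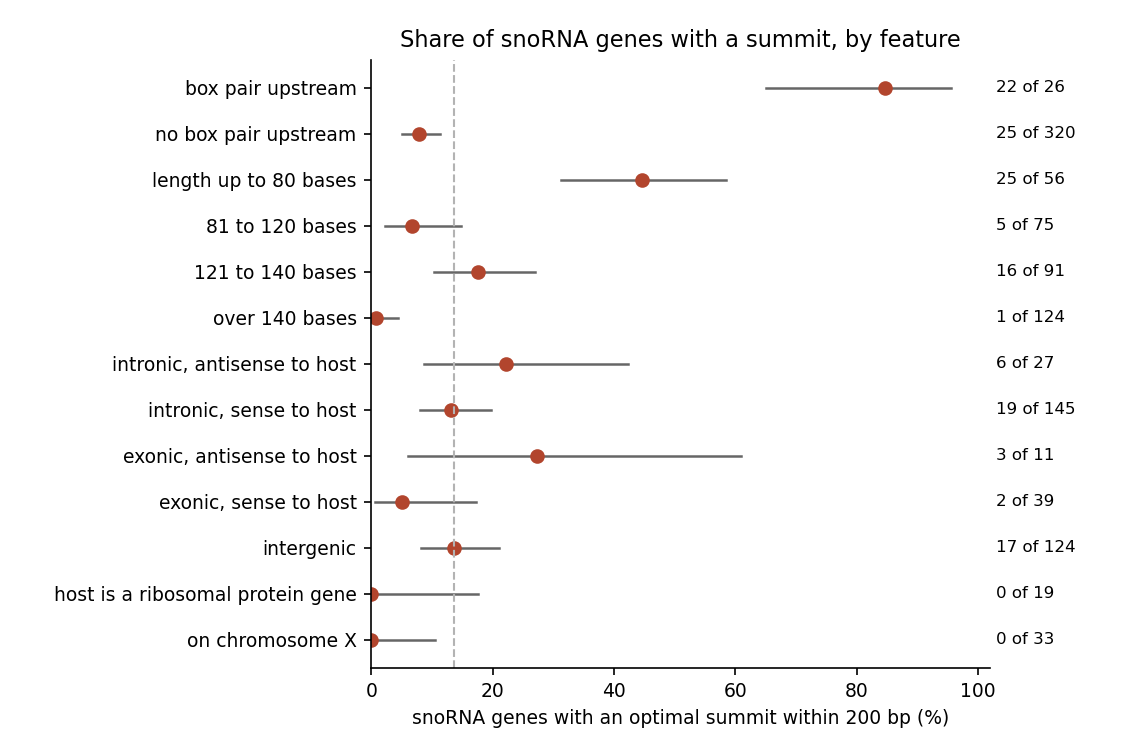
Share of snoRNA genes with an optimal summit within 200 bp (horizontal axis, %), by box pair, length, site, host and chromosome. Points are shares, bars are exact binomial 95% intervals, the numbers at the right are genes with a summit of all genes in the class, and the dashed line is the 13.6% of all 346 genes. Genes with a box pair stand at 84.6%, against 7.81% without one, while the intervals of the site classes all span the dashed line.

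Around summits the box pair was found at a larger share of peaks at snoRNA and tRNA genes than of peaks away from small RNA genes. Within 100 bp of the summit, on either strand, a box pair lay at 23 of 46 peaks at snoRNA genes (exact interval 34.9% to 65.1%). It lay at 101 of 141 peaks at tRNA genes (71.6%, 63.4 to 78.9), at 0 of 5 at snRNA genes and at 7 of 248 other nuclear peaks (2.82%, 1.14 to 5.73). With the looser pair the counts were 34 of 46 at snoRNA genes, 114 of 141 at tRNA genes, 3 of 5 at snRNA genes and 30 of 248 elsewhere.

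Summits lay mostly upstream of the snoRNA gene. In 41 of the 47 members the summit was upstream of the gene, in 5 inside it and in 1 downstream, with a median position 47 bp upstream. In all 22 members with a box pair the summit was upstream, between 100 and 13 bp from the gene start. Their median position was 49.5 bp upstream, with quartiles of 58 and 41.8 bp upstream. In the 25 members with a peak and no box pair the median was 47 bp upstream, with quartiles of 54 and 4 bp upstream. The median distance was thus much the same with and without a box pair. The B box core of these 22 began 5 to 44 bp upstream of the gene, with a median of 14, and the A box core 46 to 99 bp upstream, with a median of 59. The A box match furthest upstream was taken where several fitted, which can lengthen the A box distances. With that choice, the summit fell between the A box start and the gene start in 20 of the 22. It was within 50 bp of the B box start in 20. Nearly all peaks of the optimal set are 324 bp wide with the summit at the midpoint, so summit positions are no finer than the authors' peak calling allowed.

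**Figure D4:**
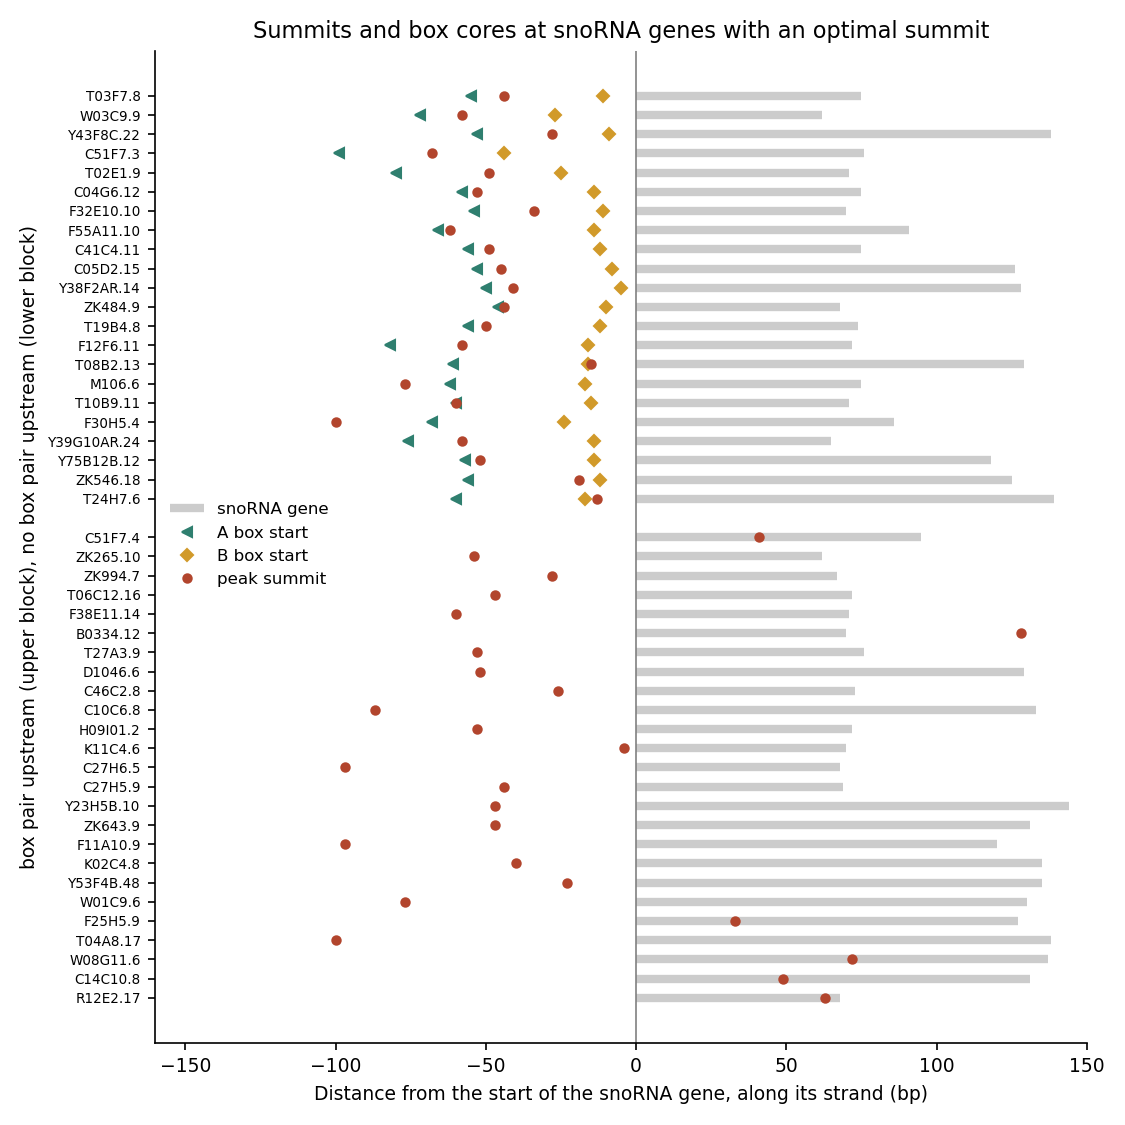
Positions along the strand of each gene (horizontal axis, bp from the gene start) for the 47 members with an optimal summit, with one row per gene. Grey bars are the snoRNA genes, circles are summits, triangles are A box starts and diamonds are B box starts, and the upper block holds the 22 genes with a box pair. Summits of the upper block lie between 100 and 13 bp upstream, with a median of 49.5 bp upstream, and those of the lower block have a median of 47 bp upstream.

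The 5 summits inside a gene and the 1 downstream were all at members without a box pair upstream. At C51F7.4 the gene itself spans the box pair that lies upstream of its neighbour C51F7.3, and the shared summit is 41 bp into C51F7.4 and 68 bp before C51F7.3. The other 4 with a summit inside the gene were F25H5.9, W08G11.6 in W08G11.3, C14C10.8 and R12E2.17, with signals of 57.4, 50.7, 43.7 and 41.1. At B0334.12 the summit was 128 bp after the gene start, beyond its end. Only 3 of the 346 members held a box pair inside the gene, and C51F7.4 was the 1 of these with an optimal summit. Without counting C51F7.4, the strongest members lacking even the looser pair were ZK265.10 with 197 and ZK994.7 with 197.

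Length separated the members too. Optimal summits lay at 25 of the 56 genes of up to 80 bases (44.6%, 31.3 to 58.5). They lay at 5 of 75 genes of 81 to 120 bases (6.67%), at 16 of 91 genes above that and up to 140 bases (17.6%) and at 1 of 124 longer genes (0.806%). The median length was 76 bases for members with an optimal summit and 133 for members without. Counts by box pair are given within the 2 sizes. The pair and the length classes were both chosen after the values were seen, and the part of length was not tested. All 13 short genes with a pair had an optimal summit, against 12 of 43 short genes without one. Among longer genes the counts were 9 of 13 with a pair and 13 of 277 without one.

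**Figure D5:**
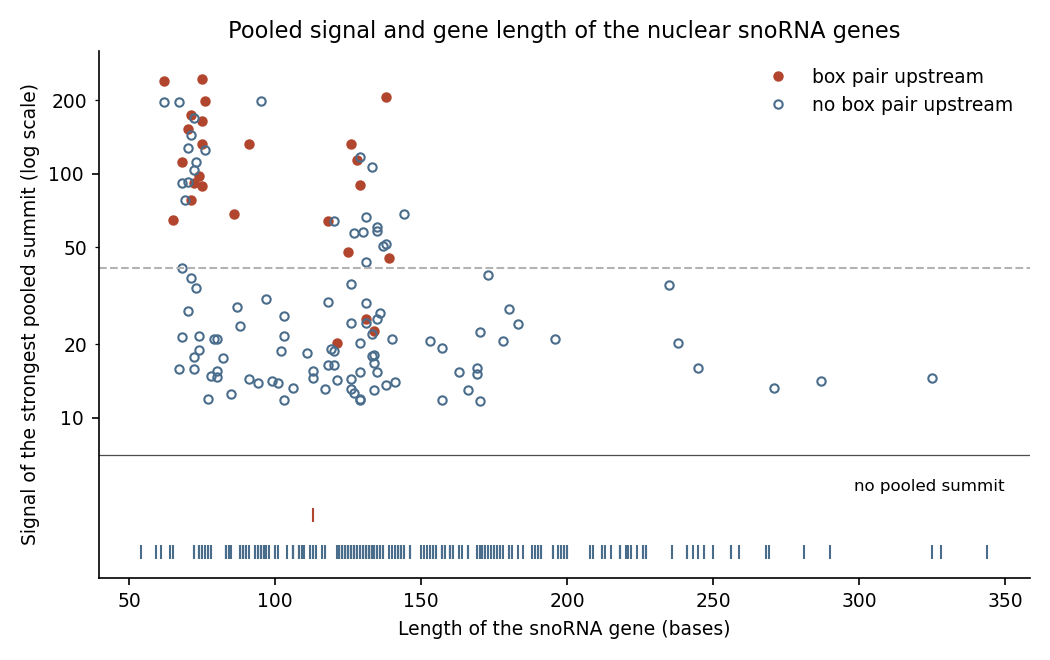
Length of each of the 346 snoRNA genes (horizontal axis, bases) and signal of the strongest pooled summit within 200 bp (vertical axis, log scale). Filled circles have a box pair upstream and open circles have none, ticks under the solid line are genes with no pooled summit, and the dashed line is the weakest optimal signal, 41.1. Members above the dashed line are mostly of up to 80 bases or of 118 to 144 bases.

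The boxes of the snoRNA itself also bore a relation to the peaks. A D box in the last 12 bases marked 71 members, of which 21 had an optimal summit (29.6%, 19.3 to 41.6), against 26 of 275 without it (9.45%, 6.27 to 13.5). By stricter rules, 15 members were C/D-like, with TGATGA near the start and CTGA near the end, and 5 of them had an optimal summit. H/ACA-like members, with ACA about 3 bases from the end, numbered 75, and 15 of them had one (exact interval 11.6% to 30.8%). The remaining 256 matched neither rule and included 27 with an optimal summit (10.5%, 7.07 to 15.0). Peaks were therefore found at genes matching either rule, with median signals of 133 over the 5 C/D-like and 60.3 over the 15 H/ACA-like members. These rules are string matches and do not settle the class of a gene. T03F7.8, shown above with a C box core and a D box, matched neither. C46C2.8 counted as H/ACA-like but also has a D box in its last 12 bases.

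The base composition and the end of the gene moved with the peaks as well. The 100 bases upstream had a median GC content of 55% at members with an optimal summit and 42% at members without, and 54.5% at members with a box pair. Where GC was at least 50%, an optimal summit lay at 20 of 21 members with a box pair (95.2%, 76.2 to 99.9) and at 20 of 95 without one (21.1%, 13.4 to 30.6). Where GC was lower, the counts were 2 of 5 with a pair and 5 of 225 without. A run of at least 4 T in the 50 bases after the gene, a sequence at which RNA polymerase III can stop, was present at 44 of the 47 members with an optimal summit (93.6%), against 197 of 299 without (65.9%). The part of base composition in these differences was not tested.

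Shares differed little between intronic, exonic and intergenic snoRNA genes. Optimal summits lay at 25 of 172 intronic genes (14.5%, 9.63 to 20.7), 5 of 50 genes that overlap an exon (exact interval 3.33% to 21.8%) and 17 of 124 intergenic genes (13.7%, 8.19 to 21.0). The 3 intervals overlap widely. With a box pair, 12 of 15 intronic and 9 of 10 intergenic genes had an optimal summit, and without one, 13 of 157 intronic and 8 of 114 intergenic genes. Intronic genes thus carried peaks at about the same share as genes outside protein-coding genes. Some peaks lay near the start of a protein-coding transcript, of the host or of another gene. The summit was within 500 bp of such a start at 10 of the 46 peaks at snoRNA genes. The counts were 31 of 141 at tRNA genes and 174 of 248 away from small RNA genes.

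The intervals of the strand classes overlapped. Antisense intronic genes had an optimal summit at 6 of 27 (22.2%, 8.62 to 42.3) and sense intronic genes at 19 of 145 (13.1%, 8.08 to 19.7). The exon class also took genes that only partly overlap a protein-coding gene. Its counts were 3 of 11 antisense and 2 of 39 sense. Each of the 3, T02E1.9, T27A3.9 and W01C9.6, started beyond the end of the protein-coding gene and overlapped only its last bases. Among sense intronic genes, 3 of 53 within 1 kb of the host start had an optimal summit (5.66%, 1.18 to 15.7), 9 of 55 at 1 to 5 kb (16.4%, 7.77 to 28.8) and 7 of 37 further away (18.9%, 7.96 to 35.2). The distance from the host start had a median of 2538 bp for sense intronic members with an optimal summit and 1482 bp for those without.

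The hosts of the 25 intronic members with an optimal summit were 25 different genes of 152 hosts in all. A host here is the protein-coding gene whose intron holds the snoRNA gene, on either strand. Function lists were made from gene symbols alone, and 2 of these hosts, fars-1 and rpn-8, fell in one. They included the spectrin gene unc-70 (K11C4.6, 92.8), the stonin gene unc-41 (C27H6.5, 91.6), the condensin gene mix-1 (M106.6, 89.4) and the phenylalanyl-tRNA synthetase gene fars-1 (T08B2.13, 90.1). The ABC transporter gene haf-9 held ZK484.9, antisense to it, with 112. The cation-transporting ATPase gene catp-8 held C10C6.8 with 106, and the Mediator gene mdt-4 held ZK546.18 with 48.0. RNA-binding protein gene rbm-34 held F11A10.9 with 64.0 and T24H7.2 held T24H7.6 with 45.3. Antisense to their hosts were C27H5.9 in pdl-1 with 78.2 and T04A8.17 in ppat-1 with 51.8. Outside introns, W01C9.6 lay antisense to the end of the globin gene glb-27 with 57.6.

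Genes for ribosomal proteins, translation factors and nucleolar proteins host many snoRNAs in vertebrates. Hosts placed in these lists by their symbol carried no optimal peak at their snoRNA genes. A host whose symbol does not show such a function was counted among the other named hosts. The count was 0 of 19 snoRNA genes in cytosolic ribosomal protein genes, which allows a share of up to 15.8% by the 3-count limit. It was also 0 of 5 in translation factor genes and 0 of 5 in the nucleolar list, which held only nol-56 and utp-20. None of these 29 had a replicate 1 summit. Among the 19, 4 had a pooled summit, with ranks no better than 2039. Members with other named hosts had an optimal summit at 22 of 149 (14.8%, 9.49 to 21.5), and the 0 of 19 has an upper exact bound of 17.6%, so the difference was not detectable at these numbers.

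Most snoRNA genes stood alone. Neighbouring genes within 1 kb of each other were counted as a cluster, and 46 members had a neighbour, of which 3 had an optimal summit (6.52%, 1.37 to 17.9), against 44 of 300 lone members (14.7%, 10.9 to 19.2). The largest cluster holds 4 genes, K07C5.18, K07C5.10, K07C5.12 and K07C5.11, in introns of nol-56, which encodes a core protein of C/D snoRNA particles. None of the 4 had a summit in any of the 4 lists. Of the 3 genes in rpl-6, R151.11 alone had a summit, of rank 26426 in replicate 2, and the 3 genes in the topoisomerase gene top-2 had none.

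Some hosts had a peak at their own start. Of the 152 hosts of intronic snoRNA genes, 6 had an optimal summit within 500 bp of their start (3.95%, 1.46 to 8.39), against 1.33% of all nuclear protein-coding genes. For 2 of these, pdl-1 and twk-5, the only such summit was the peak at the snoRNA gene. The other 4 were rpl-15 with a signal of 62.2, rps-12 with 60.9, the F-box gene fbxl-2 with 57.2 and the AAA ATPase gene cdc-48.1 with 47.3. The snoRNA genes of those 4 hosts had no optimal summit. Among all 152 hosts, 25 had an optimal summit at an intronic snoRNA gene. With a share that low, 4 hosts are too few to tell whether peaks at host starts and at snoRNA genes avoid each other.

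X was the only nuclear chromosome with no optimal summit at a snoRNA gene. Optimal summits lay at 10 of 74 members on I, 12 of 71 on II, 4 of 54 on III, 9 of 59 on IV and 12 of 55 on V. On X the count was 0 of 33, which allows up to 9.09% by the 3-count limit and 10.6% by the exact interval, against 13.6% over all members. X holds 1 of the 26 members with a box pair, Y59E1B.14.

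The 4 members with a box pair but no optimal summit were not all without signal. R166.7, in an intron of the kinase gene mnk-1, had a pooled signal of 25.5 and rank 1735, with no summit in either replicate list. H04D03.5, antisense in an intron of smrd-1, had 22.7 and rank 2839, with 15.8 in each replicate. Y59E1B.14 had 20.2, with 11.2 in replicate 2 and no summit in replicate 1. Y6B3B.15, antisense in an intron of lagr-1, had no summit in any list. The sequences of R166.7, H04D03.5 and Y59E1B.14 shown at the start match the same strict cores as the strong members.

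Just below the optimal set, the 5 strongest members by pooled signal were F59C6.15 with 38.4, C53B7.8 with 37.5, T26A8.6 with 35.4, F39B2.14 with 35.1 and Y71D11A.7 with 33.9. Their pooled ranks were 476 to 618, and none had a box pair. F59C6.15 and T26A8.6 had no replicate 1 summit. C53B7.8, a 71-base intergenic gene on X, had 17.0 in replicate 1 and 27.9 in replicate 2 and was the strongest member of that chromosome. The weakest members inside the set were R12E2.17 with 41.1 and C14C10.8 with 43.7.

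The known MED-1 site was not a feature of the members with peaks. AAGTATAC or GAGTATAC, searched on both strands in the gene and 200 bases upstream, lay at 0 of the 47 members with an optimal summit and at 2 of the 299 without. Around summits it was found at 0 of 46 peaks at snoRNA genes, 2 of 141 at tRNA genes and 1 of 248 other nuclear peaks. The sequence TGATAA, which factors of this type bind, lay at 9 of 47 members with an optimal summit (19.1%) and at 76 of 299 without (25.4%). No match says only that these letters are absent from the window. In the same window, the B box core on either strand lay at 28 of 47 members with an optimal summit (59.6%), against 40 of 299 without (13.4%).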

How the data were processed

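Chromatin immunoprecipitation with an antibody to GFP was measured in 2 biological replicates of 1 group. The authors deposited peak lists in the narrowPeak format on ce10 and ce11, and the ce11 lists were used (optimal, pooled, replicate 1 and replicate 2). According to file lists that the authors deposited, each replicate list rests on that replicate's alignments with a control, the pooled list on both replicates with a control, and the optimal set on the other lists. Which aligner, peak caller and IDR threshold were used is not given in the sources used here. Within a list, peaks were ranked by the deposited signal. The deposited score, in the field for a −log10 q-value, falls below 0 in the pooled and replicate 2 lists and served only as a stricter cut. The deposited summit offset gave the position of each peak.

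A summit within 200 bp of a gene of Ensembl release 115 was counted as at that gene, and the strongest was kept. Sequences came from the RefSeq genome of WBcel235. Python 3.11.15, pandas 2.3.3 and scipy 1.17.1 were used, and the placing of summits and the box search were tested on simulated data. Shares carry exact binomial 95% intervals, and the limit for a count of 0 is 3 counts. No tests were run. Named genes were the 20 strongest members, the hosts of members with an optimal summit, the 5 strongest members outside the optimal set, the densest clusters and genes needed for counts of 5 or fewer. The members and lists were chosen with earlier results of these data known. The box pair, its looser form, the length classes, the D box window and the GC split were chosen after the values were seen.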

Additional observations from a re-analysis of the deposited data

How the results depend on the processing

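Results kept their value, within a factor of 1.5 for counts and within their interval for shares and the median, with windows of 100 and 500 bp, with any overlap of peak and gene, with the 230 strongest peaks and without peaks at tRNA, rRNA or snRNA genes. All 9 results moved when the summit had to lie inside the gene: 5 genes and 5 peaks remained, with a median signal of 50.7, and shares of 1.74% of intronic, 0% of intergenic, 2.07% of sense intronic and 0% of antisense intronic genes, 0% with a box pair and 1.56% without. This follows from the summits, which lay mostly upstream. With a deposited score of at least 2, fewer peaks were kept: 31 genes, 30 peaks, a median signal of 126, 8.06% of intergenic genes and 4.38% of genes without a box pair. The other 4 results did not move at that cut. Without replicate 1 or 2, taking the 460 strongest regions of the remaining list, 44 to 48 genes and 43 to 48 peaks were found. The median signal was then 52.0 to 52.7, on the scale of single replicates. The share with a box pair stayed at 84.6%, and that without was 6.88% to 8.12%. The box pair results were added after the data were seen. The lists hold no read counts, so no counting error could be given for a signal, and 26 genes with a box pair limit the precision of their share. No paired analysis was possible because the series has 1 group.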
